A study of Mus musculus with 43 samples.

Results

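Retinas of male mice were compared 3 days after laser injury (3 dpl), with and without short-chain fatty acids (SCFA) in the drinking water. The comparison uses the libraries labelled male and 3 days, 7 of the 43 in the deposited count table: 4 from mice that received the laser only (control replicates 1 to 4) and 3 from mice that received the laser and SCFA (SCFA replicates 1 to 3). All mice were C57BL/6J and 9 weeks old, and all received lesions of laser-induced choroidal neovascularization (CNV), a model in which the laser breaks the membrane under the pigment epithelium and vessels grow in from the choroid. SCFA animals drank water with the sodium salts of acetate, butyrate and propionate from before the laser until the retinas were taken, and control animals did not. Each library is a pool of 2 retinas from 2 mice, so that it averages lesioned and unlesioned tissue and does not show single animals. The columns of the table form 2 runs, the first 31 and the last 12. Control replicates 1 and 2 and SCFA replicate 1 stand in the first run, and control replicates 3 and 4 and SCFA replicates 2 and 3 in the second. What set the runs apart is not given in the sources used here. The study's paper presents no transcriptome of this day, which is the earliest one sequenced.

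SCFA are made by gut bacteria from dietary fibre. Cells take them up through monocarboxylate transporters, sense them through G protein-coupled receptors such as *Ffar2*, *Ffar3* and *Hcar2*, and burn them in mitochondria, and butyrate inhibits histone deacetylases. In the lasered retina, neurons and Muller glia switch on immediate early genes and intermediate filaments, microglia and macrophages move to the lesion, and vascular and matrix genes accompany the new vessels. Rods make up most of the cells of the mouse retina and give most of its RNA.

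The 7 libraries had between 17139567 and 21111372 counts. *Xist*, the transcript of the inactive X chromosome, had at most 0.172 CPM (counts scaled to a common library size) and the Y-linked *Ddx3y* 53.7 to 68.1 CPM, so that each library matched its male label. *Opn1sw*, an opsin of cone photoreceptors, had 505 to 791 CPM, and *Reep6*, a rod gene, 1188 to 2038 CPM across the libraries. The runs stood apart: the first principal component held 51.2% of the variance and separated them, with SCFA replicate 3 between them. The mRNAs of the mitochondrial chromosome took 7.07 to 8.13% of the counts in the first run and 2.81 to 4.27% in the second. With the treatment in the model, 7009 of 16700 genes differed between the runs at an adjusted p under 0.1 (42% of all genes tested), so the run of columns was kept as a covariate.

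SCFA-treated retinas had lower levels of several transcription factor and signalling genes at 3 dpl, and higher levels of cone opsins, *Fabp4* and *Insl5*. Among the lower genes were *Zbtb16*, a hormone-induced transcription factor, which was 4.02-fold lower, and *Dio2*, the deiodinase that activates thyroid hormone, which was 2.56-fold lower. Among 16700 genes tested, 39 were differentially expressed genes (DEGs), which needed an adjusted p under 0.1 beside a log2 fold change above 1 or below -1 (0.234% of the genes tested). Of these, 17 were higher and 22 lower with SCFA. Without a threshold on the fold change, edgeR's quasi-likelihood test called 314 genes at an adjusted p under 0.1 (1.88%), 126 higher (0.754%) and 188 lower (1.13%). Calls in this text are of this second kind. Before adjustment, 3058 genes had a p under 0.05 (18.3%). All 22 lower DEGs were protein-coding, whereas the higher ones were 3 protein-coding genes, 9 noncoding RNAs and 5 pseudogenes. Nothing in the labels says whether mice of different libraries were housed or treated apart, so the p-values measure the spread between these pools. In bulk RNA, fewer cells of a type and less RNA per cell cannot be told apart.

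The calls rested on the run of columns and on single libraries. Without the run in the model there were 0 DEGs and 0 called genes with edgeR, while 1027 genes had a p under 0.05 before adjustment, and DESeq2 without the run gave 10 DEGs. Leaving out control replicate 2 gave 0 DEGs, control replicate 3 or 4 gave 1 each, SCFA replicate 3 gave 20, and SCFA replicate 1 gave 165. These limits hold for every gene described here and are not repeated.

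**Figure D1:**
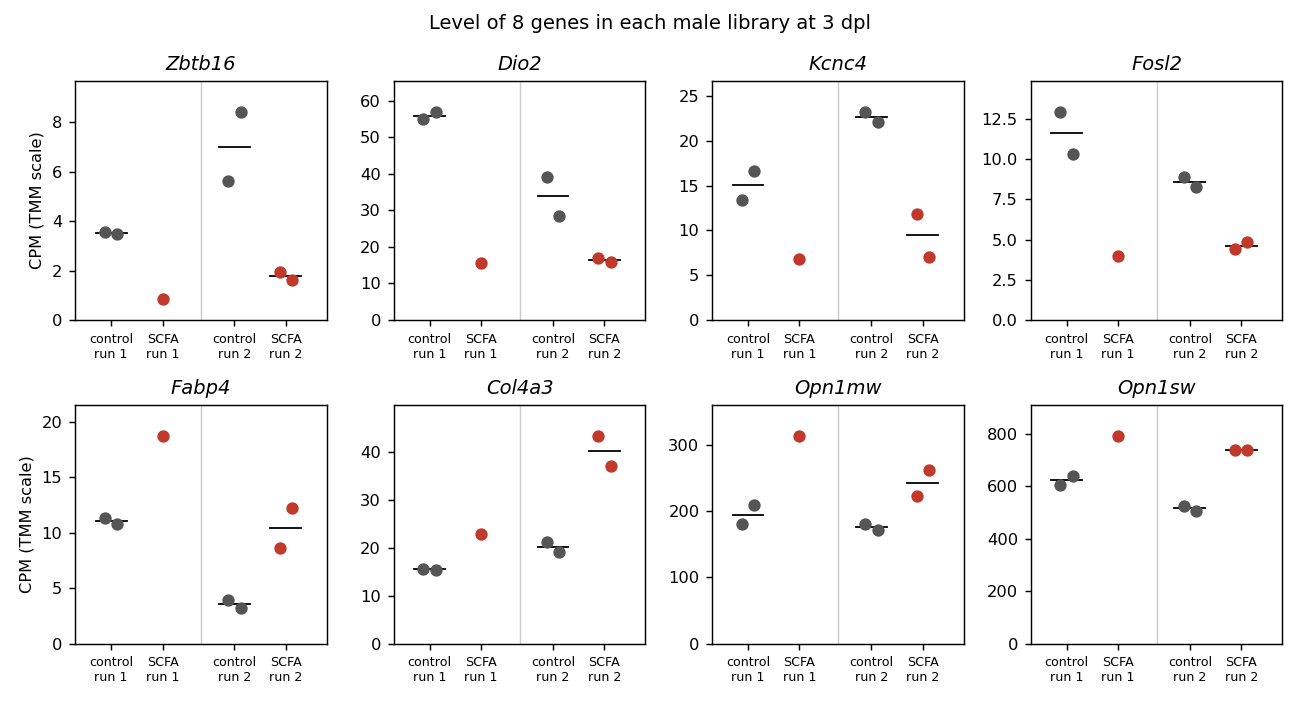
Levels of 8 genes in the 7 male libraries at 3 dpl, in CPM on linear axes that start at 0. Each point is a library (grey control, red SCFA), set out by run, and lines are the means of groups with 2 libraries. *Dio2* lies between 28.5 and 56.9 CPM in the control libraries and between 15.6 and 17.0 CPM in the SCFA libraries.

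*Dio2* (ENSMUSG00000007682, GRCm38 chromosome 12, 90724552 to 90738438, minus strand) had 55.0, 56.9, 39.3 and 28.5 CPM in control replicates 1 to 4 and 15.6, 17.0 and 15.8 CPM in SCFA replicates 1 to 3. Every SCFA library lay below every control library, and the SCFA libraries were close together while the controls of the first run lay above those of the second. Its log2 fold change was -1.36 (standard error, SE, 0.18; edgeR adjusted p = 0.0320), at -1.84 in the first run and -1.05 in the second. *Dio2* was also the only DEG whose response differed between the runs, by 0.80 on the log2 scale (edgeR adjusted p = 0.0892).

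*Zbtb16* (ENSMUSG00000066687, chromosome 9, 48654297 to 48836222, minus strand), a zinc finger repressor known as PLZF that glucocorticoids induce in many tissues, had 3.54, 3.50, 5.61 and 8.41 CPM in the control libraries and 0.836, 1.93 and 1.61 CPM in the SCFA libraries. The groups did not overlap, and the lowest level was that of SCFA replicate 1. The log2 fold change was -2.01 (SE 0.24, edgeR adjusted p = 0.0294), with nearly the same size in the first run (-2.07) and the second (-1.98). Of 17 measured glucocorticoid targets and metallothioneins, 3 were called, all lower, where 1.13% of all genes tested were called lower. Beside *Zbtb16* these were *Cdkn1a*, the cell cycle inhibitor p21 (log2 fold change -0.85, edgeR adjusted p = 0.0781), and the clock gene *Per1* (-0.49, edgeR adjusted p = 0.0871). The median log2 fold change of the list was -0.22, against 0.005 over all genes tested. *Fkbp5*, the usual reporter of the glucocorticoid receptor, had a log2 fold change of -0.33 and was not called (edgeR adjusted p = 0.204). With trends of transcript length and GC content removed from each library, *Zbtb16* and *Cdkn1a* were still called and *Per1* was not (edgeR adjusted p = 0.195).

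Immediate early genes code for transcription factors and feedback phosphatases that neurons and glia switch on within minutes of activity or injury. Of 36 measured, 4 were called, all lower with SCFA: *Fosl2*, *Klf4*, *Maff* and *Dusp4*. Over all genes tested, 1.13% were called lower. In all, 32 of 36 had a log2 fold change below 0, against 8235 of 16700 genes tested. The median was -0.42, at -0.62 in the first run and -0.30 in the second. For 29 of the 36 the sign was the same in both runs, against 52.4% of all genes tested. The size of the response differed more often: 7 of the 36 were called for a difference between the runs, against 7.21% of all genes tested. With length and GC trends removed, 0 were.

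*Fosl2*, which codes for an AP-1 subunit (ENSMUSG00000029135, chromosome 5, 32135801 to 32157842, plus strand), had 12.9, 10.3, 8.91 and 8.25 CPM in the control libraries and 3.98, 4.44 and 4.82 CPM in the SCFA libraries. *Klf4*, a zinc finger factor of stress and differentiation (ENSMUSG00000003032, chromosome 4, 55527143 to 55532466, minus strand), had 5.83, 5.62, 4.67 and 4.73 CPM against 1.43, 2.87 and 1.84 CPM. *Maff*, a small Maf partner of AP-1 and NRF2 factors (ENSMUSG00000042622, chromosome 15, 79346621 to 79359076, plus strand), had 6.06, 5.14, 2.83 and 2.73 CPM against 1.43, 1.51 and 1.78 CPM. In all of these genes each SCFA library lay below each control library. Their log2 fold changes were -1.15 for *Fosl2* (SE 0.19, edgeR adjusted p = 0.0387), -1.36 for *Klf4* (SE 0.27, edgeR adjusted p = 0.0650) and -1.24 for *Maff* (SE 0.29, edgeR adjusted p = 0.0865). *Dusp4*, a MAP kinase phosphatase, was different: the first run's groups overlapped, with 6.80 and 10.9 CPM in the controls and 7.32 CPM with SCFA. In the second run it had 35.3 and 30.0 CPM in the controls and 16.3 and 14.0 CPM with SCFA, and the log2 fold change over both runs was -0.81 (edgeR adjusted p = 0.0964, and 0.134 with length and GC trends removed).

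Other immediate early genes had values of similar size without passing the test. *Egr1* had 84.8, 66.8, 39.1 and 33.9 CPM in the control libraries and 29.7, 34.9 and 14.6 CPM in the SCFA libraries, a log2 fold change of -0.87 (edgeR adjusted p = 0.129). SCFA replicate 2 lay just above control replicate 4, so the groups overlapped in the second run. *Egr4* (-1.71) and *Nr4a3* (-1.63) had larger fold changes at low levels and missed the threshold (edgeR adjusted p = 0.102 and 0.110). *Fos* was at -0.59 (edgeR adjusted p = 0.177). *Ier3* was among the 4 members above 0, at 0.35 (edgeR adjusted p = 0.114).

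*Dio2* and many immediate early genes are known to respond to cAMP through the factor CREB, whose full site is the palindrome TGACGTCA. The 250 bases before the annotated starts were read from RefSeq (GRCm38.p6) and searched for these letters, which read the same on both strands. For *Dio2* and *Maff* these starts differ from the gene coordinates printed above, which come from GENCODE M21. The site stood before 7 of the 140 genes called lower that have a promoter in the table (5%) and 2 of the 73 called higher (2.74%), against 349 of 11955 genes tested (2.92%) and 508 of all 32851 promoters (1.55%). Among the immediate early genes it was found in 3 of 28 (10.7%). A match describes these letters and is not evidence of a bound factor. The windows of *Dio2*, *Maff* and *Plk2*, 3 of the genes called lower, are shown 5′ to 3′ on the gene's strand because these genes are discussed here. Capitals mark the site, which lies at bases 95 to 88 before the start in *Dio2* (chr12:90739106-90739153, minus strand), 29 to 22 in *Maff* (chr15:79347471-79347518, plus strand, 1 of 3 annotated starts) and 62 to 55 in *Plk2* (chr13:110394962-110395009, plus strand).
Dio2: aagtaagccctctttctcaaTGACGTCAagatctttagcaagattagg
Maff: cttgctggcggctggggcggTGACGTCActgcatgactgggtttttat
Plk2: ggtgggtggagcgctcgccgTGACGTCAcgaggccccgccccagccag
*Plk2*, an activity-regulated kinase also in the p53 target list, had a log2 fold change of -0.53 (edgeR adjusted p = 0.0938). *Dio2* and *Maff* were lower by the amounts given above.

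Other lower genes code for channels and signalling proteins. *Kcnc4*, a fast potassium channel (ENSMUSG00000027895, chromosome 3, 107438303 to 107459552, minus strand), had 13.4, 16.6, 23.2 and 22.1 CPM in the control libraries and 6.83, 11.8 and 7.06 CPM with SCFA. *Agap2*, a GTPase-activating protein that couples to PI3 kinase (ENSMUSG00000025422, chromosome 10, 127075284 to 127093169, plus strand), had 42.4, 42.2, 62.8 and 60.6 CPM against 25.5, 34.3 and 28.5 CPM. Control and SCFA libraries did not overlap in either of them. The log2 fold changes were -1.21 for *Kcnc4* (SE 0.18, edgeR adjusted p = 0.0387) and -0.88 for *Agap2* (SE 0.11, edgeR adjusted p = 0.0294). Between the runs they differed little, at -1.14 and -1.25 for *Kcnc4* and -0.73 and -0.97 for *Agap2* in the first and second run.

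The other genes with the smallest p among the lower ones were *Tmem132a*, the postsynaptic scaffold gene *Dlgap3*, the calcium channel regulator *Cbarp*, the arrestin gene *Arrb1*, the receptor phosphatase gene *Ptprf*, *Tspan9*, the membrane metalloproteinase gene *Mmp24* and *Tmem151b*. Their log2 fold changes ranged from -1.02 (*Mmp24*) to -0.65 (*Ptprf*), each with edgeR adjusted p at 0.0387. Within each run all of them had every SCFA library below every control library, but over both runs only *Dlgap3* and *Cbarp* did not overlap. *Mmp24*, for instance, had 7.49, 7.85, 17.6 and 17.8 CPM in the control libraries and 4.28, 9.50 and 6.65 CPM with SCFA, so that SCFA replicate 2 of the second run lay above the controls of the first. Further lower DEGs were *Stab1*, a scavenger receptor of macrophages and endothelium (-1.09), *H6pd* (-1.10), the neural adapter gene *Shc3* (-1.26), the potassium channel gene *Kcnj6* (-1.30), the sodium-calcium exchanger gene *Slc8a1* (-1.23) and the angiopoietin gene *Angpt4* (-1.54). Their adjusted p in edgeR's test lay between 0.0396 and 0.0989. With length and GC trends removed, *H6pd* and *Slc8a1* were still called, and *Stab1*, *Shc3*, *Kcnj6* and *Angpt4* were not.

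Among 15 histone deacetylases, the family that butyrate inhibits, 1 was called, where 1.88% of all genes tested were. In a list of this size 1 call is near that share. *Hdac11* (ENSMUSG00000034245, chromosome 6, 91156665 to 91174692, plus strand) had 66.6, 81.3, 80.4 and 77.3 CPM in the control libraries and 49.5, 61.3 and 51.5 CPM with SCFA. The highest SCFA library lay below the lowest control library, and the log2 fold change was -0.52 (SE 0.11, edgeR adjusted p = 0.0717, and 0.104 with length and GC trends removed). *Hdac2* had a log2 fold change of 0.25 and was not called (edgeR adjusted p = 0.188). The median of the family was 0.08, at -0.20 in the first run and 0.08 in the second.

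The genes that sense, carry and burn SCFA gave no call, where 1.88% of all genes tested were called. *Ffar2*, *Ffar3*, *Hcar1*, *Hcar2*, *Olfr78* and *Slc5a12* did not pass the filter on low counts. Of the 7 receptors and transporters measured, 0 were called, and the median was 0.04. *Slc16a1*, the transporter MCT1, was at 0.15 (edgeR adjusted p = 0.519) and *Slc16a3*, the transporter MCT4, at -0.40 (edgeR adjusted p = 0.254). Of 21 enzymes of SCFA and ketone metabolism, 0 were called either. The smallest p among them was that of *Acat2*, a thiolase, at 0.45 (edgeR adjusted p = 0.107).

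A few photoreceptor genes were called, all of them higher. Of 17 cone genes 2 were called, and 13 had a log2 fold change above 0, with a median of 0.17 (0.08 in the first run and 0.26 in the second). Of 30 rod genes 1 was called. Over all genes tested, 0.754% were called higher, and 1 call in a list of this size is near that share. *Opn1mw*, the green-sensitive cone opsin (ENSMUSG00000031394, chromosome X, 74127464 to 74150760, plus strand), had 180.0, 209.8, 180.3 and 172 CPM in the control libraries and 314, 224 and 262 CPM with SCFA. *Opn1sw*, the cone opsin for short wavelengths (ENSMUSG00000058831, chromosome 6, 29376671 to 29388468, minus strand), had 606, 639.8, 526 and 505 CPM against 791, 737 and 737 CPM. Both opsins were above all control libraries in all SCFA libraries. The log2 fold change was 0.55 for *Opn1mw* (SE 0.11, edgeR adjusted p = 0.0615) and 0.45 for *Opn1sw* (SE 0.10, edgeR adjusted p = 0.0750). With length and GC trends removed, *Opn1sw* was still called, while *Opn1mw* was at 0.46 and was not (edgeR adjusted p = 0.114). The cone arrestin gene *Arr3* lay just past the threshold, at 0.52 (edgeR adjusted p = 0.101).

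The called rod gene was *Reep6*, which shapes the endoplasmic reticulum of rods. It had 1493, 1500, 1347 and 1188 CPM in the control libraries and 2038, 1587 and 1670 CPM with SCFA, without overlap, and a log2 fold change of 0.39 (SE 0.10, edgeR adjusted p = 0.0993). The rod transducin gene *Gnat1* was not called (0.32, edgeR adjusted p = 0.145). Summed over the list, rod genes had 110142 to 131380 CPM in the control libraries and 136373 to 142329 CPM with SCFA, without overlap, and 25 of 30 had a log2 fold change above 0 (median 0.20, at 0.13 and 0.23 in the runs). Gene by gene the sign was the same in both runs for 17 of the 30, near the 52.4% of all genes tested. The summed cone genes overlapped, with 3199 to 6027 CPM in the control and 4028 to 5243 CPM in the SCFA libraries. Of 21 bipolar cell genes 2 were called, both higher: *Cabp5*, a calcium-binding protein (0.62, edgeR adjusted p = 0.0964), and *Pcp2* (0.41, edgeR adjusted p = 0.0980). Neither was called with length and GC trends removed. The share called higher over all genes tested was 0.754%. The bipolar list had a median of 0.35 in the first run and -0.08 in the second.

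The other named genes that were higher had varied roles. *Fabp4*, a fatty acid-binding protein of fat cells, macrophages and endothelium (ENSMUSG00000062515, chromosome 3, 10204088 to 10208576, minus strand), had 11.3 and 10.8 CPM in the first run's controls against 18.7 CPM with SCFA, and 3.93 and 3.26 CPM in the second run's controls against 8.66 and 12.2 CPM. *Insl5*, an insulin-like peptide hormone known from the colon (ENSMUSG00000066090, chromosome 4, 103017872 to 103026842, minus strand), had 10.8 and 6.31 CPM against 15.8 CPM in the first run, and 1.73 and 1.79 CPM against 5.06 and 7.69 CPM in the second. SCFA libraries lay above controls within each run, and over both runs the groups overlapped because the first run's levels were higher throughout. The log2 fold changes were 1.19 for *Fabp4* (SE 0.20, edgeR adjusted p = 0.0387) and 1.39 for *Insl5* (SE 0.27, edgeR adjusted p = 0.0599), and both were DEGs. *F11*, a clotting factor gene, was the other protein-coding DEG that was higher (1.28, edgeR adjusted p = 0.0864, and not called with length and GC trends removed).

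*Camk1d*, a calcium-dependent kinase (ENSMUSG00000039145, chromosome 2, 5293457 to 5714515, minus strand), had 123, 138, 201 and 191 CPM in the control libraries and 241, 295 and 265 CPM with SCFA. *Tctex1d2*, a dynein light chain, had 17.8, 22.8, 14.2 and 14.4 CPM against 35.6, 23.01 and 23.4 CPM. Neither gene overlapped between the groups. The log2 fold changes were 0.66 for *Camk1d* (SE 0.11) and 0.74 for *Tctex1d2* (SE 0.12), each with edgeR adjusted p at 0.0387. The rest of the higher genes with the smallest p were *Pitpnm2os2* (0.54), *Igip* (0.54), the splicing-related *Rsrp1* (0.67), *Rbm12b2* (0.60), *BB218582* (0.72) and *Lbhd1* (0.52). Of the 24 genes named for the smallest p in either direction, 22 were still called with length and GC trends removed, and *Opn1mw* and *Igip* were not.

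Matrix genes were called in both directions. Of 32 collagens, fibronectin and matrix inhibitors, 5 were lower and 1 was higher, with a median of -0.41 (-0.44 in the first run and -0.36 in the second). Over all genes tested, 1.13% were called lower and 0.754% higher. The list does not hold every matrix gene. Outside it the collagen genes *Col27a1* (0.70) and *Col19a1* (0.78) were called higher, and the laminin gene *Lamb1* (-0.66) lower. *Col4a3*, a basement membrane collagen chain (ENSMUSG00000079465, chromosome 1, 82586921 to 82722059, plus strand), had 15.7, 15.4, 21.3 and 19.3 CPM in the control libraries and 22.9, 43.5 and 37.1 CPM with SCFA, all above the controls. Its log2 fold change was 0.82 (SE 0.13, edgeR adjusted p = 0.0387). *Col18a1*, the precursor of endostatin, had 58.5, 94.9, 103 and 81.4 CPM against 33.2, 51.5 and 65.1 CPM. Control replicate 1 lay among the SCFA libraries of the second run, and within each run the groups did not overlap (log2 fold change -0.87, edgeR adjusted p = 0.0720). The metalloproteinase inhibitor genes *Timp2* (-0.55, edgeR adjusted p = 0.0387) and *Timp3* (-0.71, edgeR adjusted p = 0.0627) and the collagen genes *Col1a2* (-0.96, edgeR adjusted p = 0.0871) and *Col9a3* (-0.88, edgeR adjusted p = 0.0872) were the others of the list called lower. With length and GC trends removed, *Col4a3*, *Timp2* and *Timp3* were still called, and *Col18a1*, *Col1a2* and *Col9a3* were not. Pigment epithelium and choroid, which express several of these genes, can be carried along with a dissected retina. The summed pigment epithelium list, of which 20 of 20 genes were measured and 1, *Trpm3*, was called lower (-0.55, edgeR adjusted p = 0.0711), had 233 to 617 CPM in the control libraries and 224 to 454 CPM with SCFA. Its part in the matrix values was not tested.

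Lists of glia, immune and vascular genes gave almost no calls, where 1.88% of all genes tested were called. In lists of this size, 0 or 1 call is near that share. Of 31 genes of gliosis and injury 0 were called, although 30 had a log2 fold change below 0 (median -0.41). *Gfap*, the intermediate filament of reactive Muller glia and astrocytes, had 129, 111, 74.9 and 116 CPM in the control libraries and 39.5, 69.3 and 81.7 CPM with SCFA. SCFA replicate 3 lay above control replicate 3, and the log2 fold change of -0.81 was not called (edgeR adjusted p = 0.129), at -1.60 in the first run and -0.34 in the second. Homeostatic microglia (0 of 19 called, median -0.36), complement (0 of 21, median -0.39), antigen presentation (0 of 23, median -0.43) and ganglion cell genes (0 of 20, median -0.28) were likewise below the median of all genes without a call. The only call among disease-associated microglia genes, 1 of 25, was *Timp2*. *Csf1r* (-0.63, edgeR adjusted p = 0.129) and *C1qa* (-0.67, edgeR adjusted p = 0.201) mark microglia and were not called. Of 27 genes of VEGF, angiopoietin and hypoxia 0 were called, with *Vegfa* at -0.08 (edgeR adjusted p = 0.770), and of 25 endothelial and barrier genes 0 were called. The angiopoietin gene *Angpt4*, given above as a lower DEG, is in neither list. The immune medians lay further below 0 in the first run: antigen presentation was at -0.92 there and -0.02 in the second run, disease-associated microglia at -0.72 and 0.11, and the type I interferon response at -0.53 and 0.25, with 0 of 25 genes above 0 in the first run and 21 in the second.

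**Figure D2:**
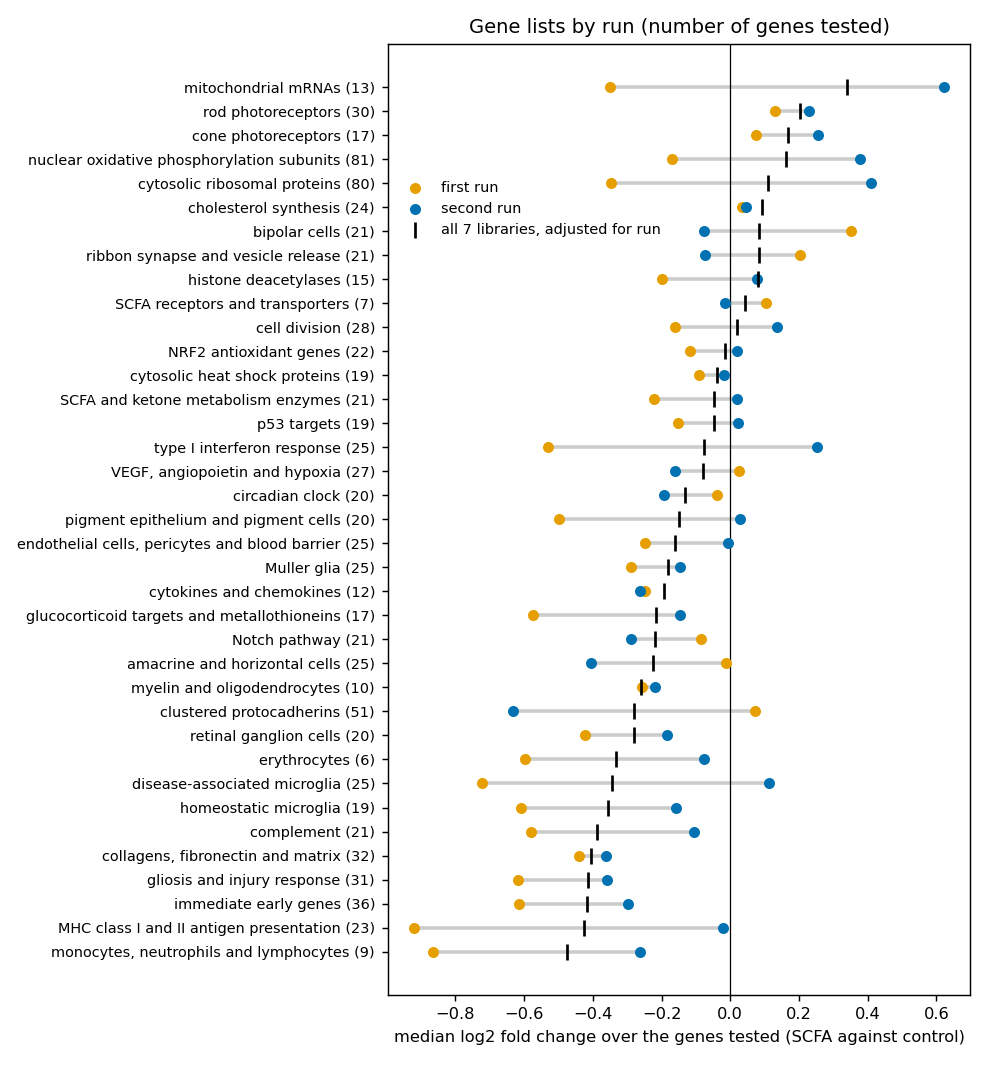
Median log2 fold change of SCFA over control for each gene list, in the first run (orange, 2 control and 1 SCFA library), in the second (blue, 2 control and 2 SCFA libraries) and in all 7 libraries (black ticks), with the number of genes tested in brackets. Lens crystallins are not drawn because their medians of 2.61 and -0.69 would stretch the axis. Immediate early genes, gliosis and matrix lists lie below 0 in both runs, rods lie above 0 in both, and ribosomal protein and mitochondrial lists change side.

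Whether the runs agreed was read from the fold changes within each run, which share no library. Across 16700 genes the log2 fold changes of the runs had a Pearson correlation of 0.126, and 52.4% of genes had the same sign. Genes are not independent replicates, so no p is given. Of 335 genes with a log2 fold change above 1 or below -1 and a p under 0.05 before adjustment in the second run, 60.6% had the same sign in the first, 67% of those higher and 52.9% of those lower. Of 621 genes taken in the same way from the first run, 66.7% had the same sign in the second, 72.7% of those higher and 63.2% of those lower. The first run holds 1 SCFA library, so a p there rests on the spread of its 2 controls. For the 100 genes with the smallest p, the share was 68% when they were taken from the second run and 69% from the first. Split by direction, these were 61.3% of the higher and 71% of the lower genes for the second run, and 50% and 73.8% for the first. Over all genes the shares were 51.4% and 53.4% for genes higher and lower in the second run, and 53.7% and 51.1% for those of the first. The lower genes of the 335 and the higher ones of the first run's 100 were thus not above all genes.

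Counted by library, 2165 genes had every SCFA library above every control library within both runs (13% of those tested), and 2040 had every SCFA library below (12.2%). Nearly as many separated in opposite ways: 1768 were higher in the first run and lower in the second, and 1718 lower and then higher. All 126 genes called higher and 187 of the 188 called lower separated within both runs, the exception being *Dusp4*. The test takes its p from both runs together, so this describes the called genes and is no separate check. Over all 7 libraries regardless of run, 65 of the 126 and 83 of the 188 did not overlap, against 4.68% and 4.05% of all genes tested.

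**Figure D3:**
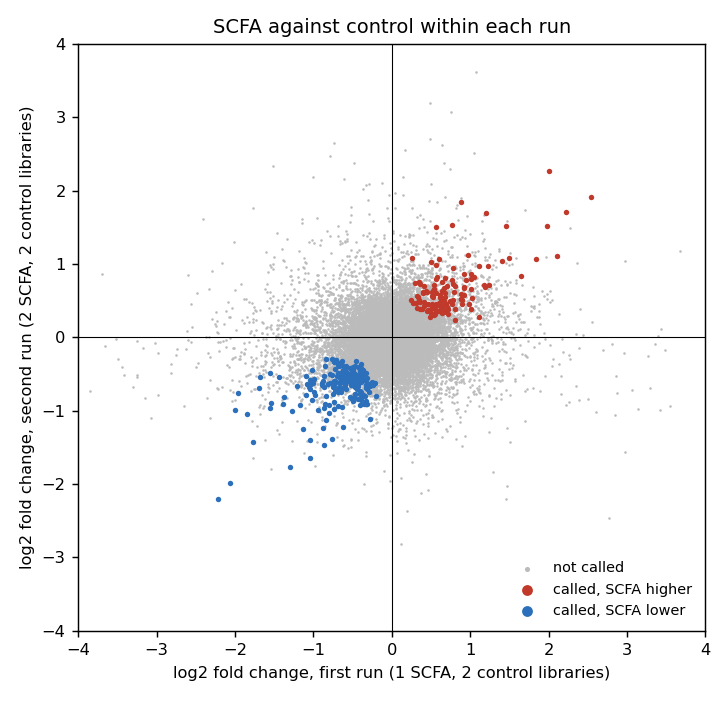
Log2 fold change of SCFA over control in the first run (x axis) against the second (y axis), 1 point per gene tested, with the called genes marked by direction. The cloud of all genes has a Pearson correlation of 0.126, and the 314 called genes lie in the 2 quadrants where the runs have the same sign. The axes leave out 15 genes.

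A test of the run by SCFA interaction called 1204 genes (7.21% of those tested), of which 277 were DEGs (1.66%). The second run's log2 fold change lay above the first run's in 160 of the DEGs and below it in 117. Among the 314 genes called for SCFA, 7 were also called for a difference between runs. The smallest p was that of *mt-Co2*, a subunit of cytochrome oxidase coded by the mitochondrial chromosome. It had 285 and 235 CPM in the first run's controls against 173 CPM with SCFA, and 55.8 and 57.3 CPM in the second run's controls against 160.3 and 148 CPM. The SCFA libraries of both runs were at one level, and the controls lay above it in the first run and below it in the second. The log2 fold change was -0.59 in the first run and 1.45 in the second, a difference of 2.03 (SE 0.19, edgeR adjusted p = 0.00155). *Tnr*, *Nhlh2* and *Rfx3* went from higher to lower, with differences between -1.33 and -1.22, and *Ptges2* from lower to higher (1.18), each with edgeR adjusted p at 0.0337. Without SCFA replicate 3 the interaction gave 1 DEG, without control replicate 3 or 4 it gave 2 and 3, without control replicate 2 it gave 572, and without SCFA replicate 2 it gave 557.

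Ribosomal protein and respiratory chain genes differed between the runs. Of 80 cytosolic ribosomal protein genes, 2 had a log2 fold change above 0 in the first run and 80 in the second (medians -0.35 and 0.41), and 68 were called for the difference. Of 81 nuclear subunits of oxidative phosphorylation, 19 and 79 were above 0, and 37 were called. The 13 mitochondrial mRNAs had medians of -0.35 and 0.62, and 9 were called for the difference. With length and GC trends removed, 75 genes of the whole table were called for a difference between runs, among them 8 of the ribosomal protein genes, 4 of the nuclear subunits and 1 of the mitochondrial mRNAs. *mt-Nd4* was the one among them called for SCFA (0.56, edgeR adjusted p = 0.0840), and *Uqcrb* among the nuclear subunits (0.41, edgeR adjusted p = 0.0881). Neither was called with length and GC trends removed. Clustered protocadherins, which are long transcripts, had medians of 0.07 and -0.63, with 32 and 1 of 51 genes above 0.

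**Figure D4:**
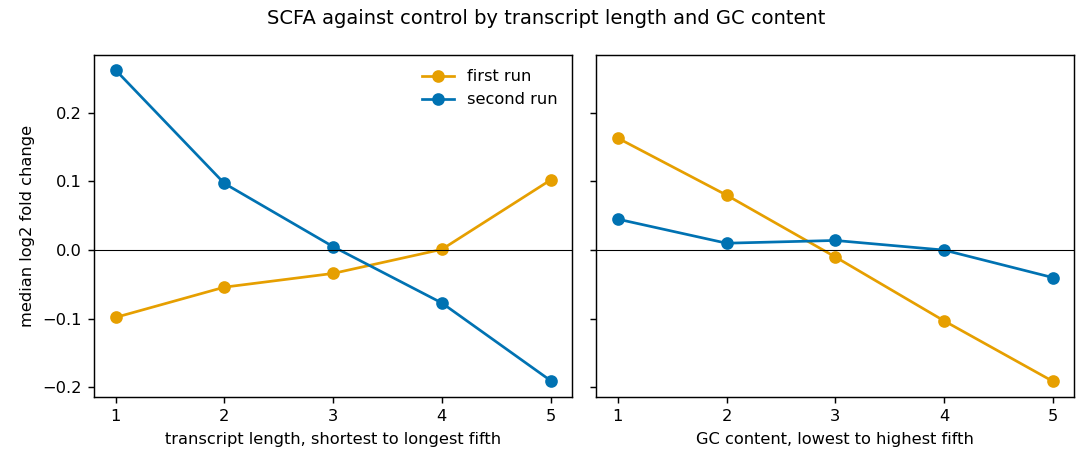
Median log2 fold change of SCFA over control in quintiles of the genes by transcript length and by GC content, for each run. In the second run the median falls from 0.26 in the shortest to -0.19 in the longest quintile, and in the first it rises from -0.10 to 0.10.

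The fold changes varied with transcript length in opposite ways in the runs. From the shortest to the longest quintile of genes, the median log2 fold change went from -0.10 to 0.10 in the first run and from 0.26 to -0.19 in the second. From the lowest to the highest quintile of GC content it went from 0.16 to -0.19 in the first run and from 0.05 to -0.04 in the second. Genes called higher had a median length of 2158 bases and a GC content of 0.457, and genes called lower 4660 bases and 0.557, against 3341 bases and 0.497 over the genes with a value. When each library's trend with length and GC content was removed, 158 genes were called, of which 118 were among the 314, and 17 were DEGs. The interaction fell to 31 DEGs. What length and GC content contribute to the calls beyond these counts was not tested.

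Lens crystallins, the proteins of lens fibre cells that can cling to a dissected retina, moved with single libraries. Summed over the list they had 68.0, 131, 59.7 and 164 CPM in the control libraries and 265, 87.5 and 77.3 CPM with SCFA. SCFA replicate 1 stood highest. None of the 15 measured was called for SCFA, and the median was 2.61 in the first run and -0.69 in the second.

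The same comparison in other groups of the study was fitted separately on libraries that are not shared with the 7. In males at 14 dpl (3 control and 3 SCFA libraries, all of the first run), 122 of the 126 genes called higher at 3 dpl were higher (96.8%) and 82 of them were called higher, where 12% of all genes tested were. Of the 188 genes called lower, 178 were lower (94.7%) and 137 were called lower, against 12.6% of all genes tested. None of the 314 was called in the opposite direction. With length and GC trends removed in both fits, 66 of 68 and 89 of 90 genes kept the direction at 14 dpl. The counts of SCFA replicate 1 were nearer to those of SCFA replicate 3 at 14 dpl (chi-square per degree of freedom 8.18) than to SCFA replicates 2 and 3 of its own group (46.8 and 27.5), which stand in the other run. Whether this nearness, the control libraries or the labels play a part in the match was not tested.

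*Dio2* at 14 dpl had 67.9 to 81.2 CPM in the control and 17.9 to 39.4 CPM in the SCFA libraries, a log2 fold change of -1.32 (edgeR adjusted p = 0.00695). *Klf4* (-2.03, edgeR adjusted p = 0.00670), *Fosl2* (-0.92, edgeR adjusted p = 0.0137) and *Cdkn1a* (-1.50, edgeR adjusted p = 0.00472) were also called lower there, and *Insl5* (1.54, edgeR adjusted p = 0.00958), *Fabp4* (1.09, edgeR adjusted p = 0.0187) and *Col4a3* (0.57, edgeR adjusted p = 0.0172) higher. Not called at 14 dpl were *Zbtb16* (-0.82, edgeR adjusted p = 0.176), *Opn1mw* (0.08, edgeR adjusted p = 0.668) and *Opn1sw* (0.26). Of 36 immediate early genes, 21 were called lower and 1 higher at 14 dpl, with a median of -0.62. A test of the difference between the responses at 3 and 14 dpl gave 0 DEGs and 0 calls among 17166 genes with edgeR, while 1731 genes had a p under 0.05 before adjustment, and DESeq2 gave 0 DEGs. Without SCFA replicate 1 of 3 dpl the count was 163.

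At 7 dpl, with 3 control and 5 SCFA libraries, the genes matched less. All 3 controls stand in the first run, so the separately fitted fold changes rest on the 3 SCFA libraries of that run. Of the 126 called higher at 3 dpl, 88 were higher, 42 called higher and 5 called lower, where 16.3% and 10.9% of all genes tested were called in these directions. Of the 188 called lower, 141 were lower, 70 called lower and 10 called higher. Among the DEGs, 9 of the 17 higher ones were higher at 7 dpl, and 9 of the 22 lower ones were lower, of which 3 were called, while 3 others were called higher. The responses at 3 and 7 dpl differed in 5 DEGs of 17426 genes (0.0287%), with 2627 at an unadjusted p under 0.05 and 223 DEGs with DESeq2. *Dio2* led them. At 7 dpl it had 44.6 to 50.9 CPM in the controls and 34.5 to 120.2 CPM with SCFA, so that the SCFA libraries spread on both sides of the controls. Its log2 fold change in that fit was -1.31 at 3 dpl and 0.80 at 7 dpl, a difference of -2.11 (SE 0.34, edgeR adjusted p = 0.0485). *Mfsd2b* (1.16, edgeR adjusted p = 0.0603) and *Arap2* (-1.33, edgeR adjusted p = 0.0857) followed. Leaving out 1 of the 3 dpl libraries moved this count between 0 (without SCFA replicate 3) and 394 (without control replicate 1).

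**Figure D5:**
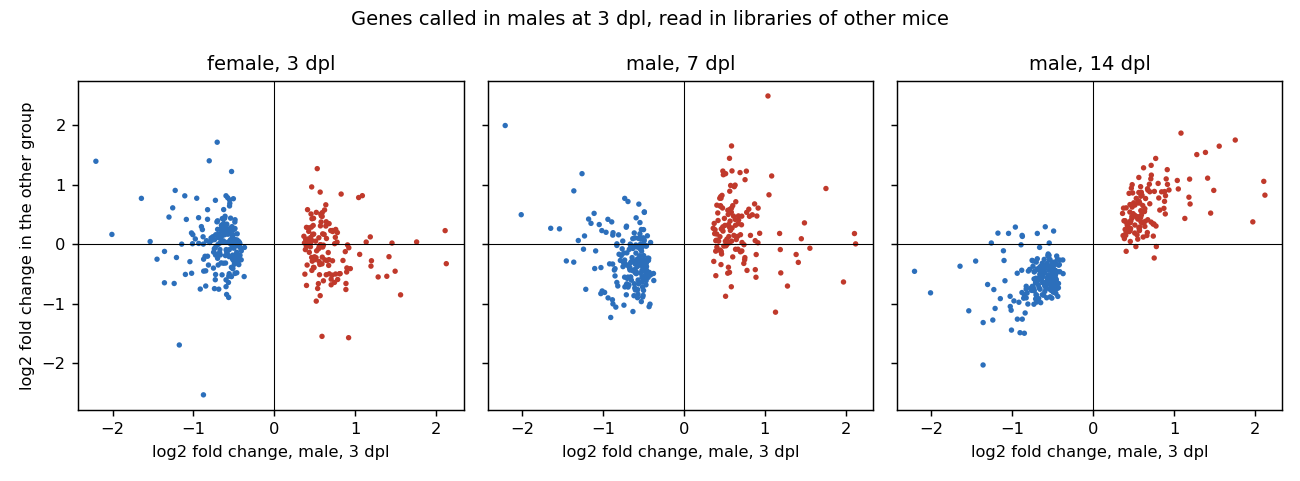
Log2 fold change of SCFA over control in females at 3 dpl and in males at 7 and 14 dpl (y axes) against that in males at 3 dpl (x axes), 1 point per gene called higher (red) or lower (blue) in males at 3 dpl. At 14 dpl the medians are 0.54 and -0.58, and in females at 3 dpl -0.05 and 0.01.

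In females at 3 dpl, with 3 control and 5 SCFA libraries, 56 of 125 genes called higher in males were higher, 11 called higher and 8 called lower, and 91 of 188 called lower were lower, 18 called lower and 7 called higher. Backgrounds were 8.51% of all genes tested called higher and 7.82% called lower. *Dio2* in females had 40.1 to 57.5 CPM in the control and 29.7 to 54.5 CPM in the SCFA libraries, with overlap (log2 fold change -0.12, edgeR adjusted p = 0.688). The test of the difference between the sexes gave 0 DEGs and 0 calls among 17254 genes with edgeR, with 2053 at an unadjusted p under 0.05, and DESeq2 gave 38 DEGs. The smallest p was that of *Camk1d*, with a log2 fold change of 0.68 in males and -0.15 in females, a difference of 0.83 that did not pass (edgeR adjusted p = 0.214). A difference between the sexes was therefore not shown by edgeR's test for any single gene, although the male calls as a set had no common direction in females. The list of 36 immediate early genes was lower in females too, with a median of -0.47, 13 called lower and 5 called higher. *Cdkn1a*, *Per1*, *Cabp5*, *Pcp2* and *mt-Nd4* were called in the male direction in females. *Dusp4* (1.40), *Bhlhe40*, *Timp3*, *Trpm3* and *Pitpnm2os2* were called in the opposite one. *Trpm3* is in the pigment epithelium list, of which 15 of 20 genes were called higher in females (median 1.62). Lens crystallins had a median of 9.43 there. The part of tissue carried along in the female values was not tested. The female controls at 3 dpl and the male controls at 7 dpl stand in the first run only. With the run in the model, the separately fitted fold changes of females therefore rest on the 3 SCFA libraries of that run. The CPM ranges printed for females span all 5.

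The use of strand in counting is not given in the sources used here. Where exons of named genes overlap those of another gene, as in *Dio2* with *Gm26512*, *Col4a3* with *C430014B12Rik*, *Opn1sw* with *Calu*, *Timp3* with *Syn3*, *Mmp24* with *BC029722*, *Tmem151b* with *Tcte1* and *Stab1* with *Nt5dc2* on the opposite strand, and *mt-Nd4* with *mt-Nd4l* on the same strand, reads of the pair may be mixed. On opposite strands this would need counting without strand. The 5 pseudogenes among the higher DEGs may share reads with their parent genes.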

How the data were processed

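RNA of whole retinas, pooled from 2 mice per library, was sequenced in bulk. The authors deposited 1 table of raw counts per gene for 54532 genes in 43 libraries. The submitters' processing notes name mm10 and DESeq2, and the counting tool is not given in the sources used here. Gene names and positions came from GENCODE M21 (GRCm38), which matched 54495 identifiers. Libraries were grouped by their titles, and the run of columns was taken from the order of the table. The counts were tested with edgeR 4.0.16 (R 4.3.3): filterByExpr, TMM and the quasi-likelihood test on run and treatment over the 7 libraries, with Benjamini-Hochberg adjustment. CPM are on the TMM scale. DESeq2 1.42.0 and other filters, normalizations and sets of libraries were alternatives, and the removal of length and GC trends was added after seeing the data. The scripts were tested on simulated counts. Named genes were the 12 with the smallest p in each direction with an established name and at least 1 CPM, up to 4 per list, 5 per interaction, the 5 in each direction with the smallest p in the second run, and defining markers. The members and lists were chosen with earlier results of these data known, and further DEGs and counterexamples were named after their values were seen. Same-numbered control and SCFA libraries had deviations from their group means that correlated by 0.402, -0.44 and 0.054. The run was not removed from these deviations, and pairs of unlike number in the same run had 0.04 to 0.527. These values therefore cannot tell whether the numbers pair the samples, and the main test does not use the numbers as pairs. No pair of replicates agreed within sampling noise. Depth was 17139567 to 21111372 counts per library, and intervals or floors were not needed. Some items are not reported here.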

Additional observations from a re-analysis of the deposited data

Results flagged for a closer look

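The 85 items tested among the 4 control libraries were named genes, the total counts and the share of mitochondrial mRNAs. Of these, 3 had a library far from the others, where chance flags about 1 in 20 groups. *Dok6* had 2.15 CPM in control replicate 4 against 0.848 to 1.03 CPM in the other controls. *Hes1*, a Notch target, had 28.8 CPM in control replicate 2 against 21.8 to 22.96 CPM. *Slc16a3* had 48.5 CPM in control replicate 1 against 83.6 to 86.8 CPM. The cause was not tested.

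The response to SCFA differed between the runs in 277 DEGs by edgeR's interaction test, led by *mt-Co2* (2.03 higher in the second run), *Tnr* (-1.33), *Ptges2* (1.18), *Nhlh2* (-1.25) and *Rfx3* (-1.22), all on the log2 scale. The response at 3 dpl differed from that at 7 dpl in 5 DEGs, among them *Dio2* (-2.11), *Mfsd2b* (1.16) and *Arap2* (-1.33).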

How the results depend on the processing

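The 39 DEGs of SCFA against control became 0 without the run of columns, 10 with DESeq2 on treatment only, 171 without the filter on low counts, 2 in a fit of all 43 libraries, 318 with the first run alone, 241 with the second alone, 17 with length and GC trends removed, 314 without a fold threshold and 12 at an adjusted p under 0.05. With 1 library left out they ranged from 0 to 165. With the replicate number as a block in place of the run there were 0 DEGs. Control replicate 2 stands in the first run and SCFA replicate 2 in the second, so this block does not adjust for the run. Whether the effect is weaker cannot be told from this count. DESeq2 with the run gave 37 DEGs. Without a fold threshold it called 922 genes (347 higher and 575 lower), against 314 with edgeR, and 301 of the 314 were among them. The number of calls thus depended on the test, and statements that a gene or list was not called refer to edgeR's test. The run interaction (277) gave 153 with DESeq2, 544 unfiltered, 31 with trends removed and 1204 without a fold threshold, and 1 to 572 with 1 library left out. The sex interaction (0) gave 38 with DESeq2 and 545 unfiltered. The 3 against 7 dpl interaction (5) gave 223 with DESeq2, 444 unfiltered, 0 without the run, and 0 to 394 with 1 library left out. The 3 against 14 dpl interaction (0) gave 76 unfiltered and 0 to 163 with 1 library left out. The share of genes with the same sign in both runs stayed between 51.1 and 55.4%.

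Of 83 named genes, 2 turned in sign. *Vegfa*, not called in the main test, was at 0.063 with the replicate block and 0.23 in the first run alone, and between -0.29 (without SCFA replicate 1) and 0.014 (without SCFA replicate 2) with 1 library left out, also above 0 without control replicate 3 (0.011). *mt-Co2* was at -0.59 in the first run alone. *Tnr*, *Nhlh2*, *Rfx3* and *Ptges2*, named for the run difference and with opposite signs in the runs, were not among the 83. The causes were not tested. Where leaving out a library left a single SCFA or control library in a run, that library was assumed to vary like the others. Genes at low CPM rest on few counts, and with 7 pools over 2 runs only large differences in them were detectable.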

Other observations

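Of 20 circadian clock genes 2 were called, both lower with SCFA: *Per1*, described with the glucocorticoid targets, and *Bhlhe40*, a repressor of the clock loop. *Bhlhe40* had 45.9, 41.5, 56.2 and 54.9 CPM in control replicates 1 to 4 and 33.2, 40.2 and 35.6 CPM in SCFA replicates 1 to 3. Every SCFA library lay below every control library, and the log2 fold change was -0.49 (SE 0.10, edgeR adjusted p = 0.0711). The activator side of the loop was not called, and the list's median was -0.13. Of all genes tested, 1.13% were called lower. Collection times of the retinas are not given in the sources used here.

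Of 19 cytosolic heat shock proteins, the chaperone gene *Hsph1* was called (-0.47, edgeR adjusted p = 0.0899), and it was not called with length and GC trends removed. Of 19 p53 targets, *Cdkn1a* and *Plk2* were called lower, and the list's median was -0.05. No gene was called among 24 of cholesterol synthesis (median 0.09), 21 of the Notch pathway (-0.22), 28 of cell division (0.02) and 22 NRF2 antioxidant genes (-0.015). Over all genes tested, 1.88% were called.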
